A study of Mus musculus with 2 samples.

Results

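Integrins and cadherins are the main surface receptors by which a fibroblast holds on to matrix and to its neighbours. They were read here as RNA in culture-expanded fibroblastic reticular cells (FRCs), the stromal cells that build the conduit and migration network of lymph nodes. The genes were taken by symbol, as every Itga gene, every Itgb gene with a plain number and every Cdh gene with a plain number that had a probe set of its own in the platform's probe annotation. This gave 49 of the 19751 named genes, 26 integrin chains and 23 cadherins, and the RefSeq gene table held no further protein-coding gene under these symbols. Of the 23 cadherins, 18 are classical (5 of type I and 13 of type II), and the other 5, Cdh13, Cdh16, Cdh17, Cdh23 and Cdh26, carry the same symbol but lack the classical structure. No measured value entered the choice of genes.

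The series has 1 group of 2 arrays, replicate 1 and replicate 2, both from untreated C57BL6/J mice aged 4 to 6 weeks, whose lymph node stroma was kept in culture for 7 to 10 days (αMEM, 10% fetal calf serum). The labels name the cells purified FRCs without the purification step. They leave unstated whether each replicate had its own animals or culture, and part of the spread may be technical. With no second condition, no test was possible and no p-value is given. Levels are log2 intensities, and ± marks the SD over n = 2 arrays.

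An integrin is a pair of 1 α and 1 β chain. The α chain largely sets the ligand, which may be collagen, laminin, proteins with an RGD (arginine-glycine-aspartate) sequence such as fibronectin, or counter-receptors on other cells. The β chain carries the tail that binds talin and kindlin and so links the receptor to actin. Classical cadherins bind cadherins of a neighbouring cell, and their tails hold β-catenin and p120-catenin. Fibroblasts are known for the β1 integrins and for the cadherins N-cadherin and cadherin-11.

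A gene was counted as above background when its level passed, on both arrays, the 95th percentile of 1035 olfactory receptor probe sets, 7.15 on replicate 1 and 7.17 on replicate 2. A stricter limit was the same percentile of 34 probe sets whose genes belong to liver, retina, testis and other specialised tissues, 8.09 on replicate 1 and 8.18 on replicate 2. Of these 34 tissue-restricted genes, 15 (44.1%) passed the first limit themselves, so passing it alone is weak evidence of a transcript. Over all named genes, 67.3% passed the first limit and 49.8% the stricter one. The FRC marker genes passed the first limit in 8 of 8 cases and the stricter one in 7. Ccl19, at 8.17 and 7.85, passed the stricter limit on replicate 1 alone. The stricter limit was passed by 1 of 11 leukocyte, 1 of 11 blood endothelial, 0 of 5 lymphatic endothelial, 2 of 8 epithelial, 3 of 7 pericyte and mural, 1 of 4 Schwann and neural, 1 of 7 skeletal muscle and 0 of 3 platelet markers. These counts need both arrays. The platelet marker Ppbp passed the stricter limit on replicate 1 alone, at 9.90, and lay between the limits on replicate 2. It was 5.27-fold higher on replicate 1. Of the other platelet markers, Gp9 lay between the limits on both arrays and Pf4 below the first limit. The part of platelets in the levels was not tested. A probe's level depends on how well it binds, so levels were read against the limits and between the arrays, not between genes.

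Both arrays exceeded the first limit for 36 of the 49 genes (73.5%), against 67.3% of all named genes, and the stricter one for 17 (34.7%), against 49.8%. The 2 families differed in this count. Among integrins 21 of 26 passed the first limit and 12 (46.2%) the stricter one, whereas among cadherins 15 of 23 passed the first and 5 (21.7%) the stricter one. These shares are descriptions, and no test was made of them.

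The sequences shown are promoters of the 3 integrin genes whose levels differed at least 1.5-fold between the arrays, Itga11, Itga1 and Itga4. Each is the 250 bases upstream of the RefSeq start in GRCm38.p6, printed 5′ to 3′ on the strand of the gene, and capitals mark the motifs searched for on both strands.
Itga11, chr9:62677605-62677854, plus strand: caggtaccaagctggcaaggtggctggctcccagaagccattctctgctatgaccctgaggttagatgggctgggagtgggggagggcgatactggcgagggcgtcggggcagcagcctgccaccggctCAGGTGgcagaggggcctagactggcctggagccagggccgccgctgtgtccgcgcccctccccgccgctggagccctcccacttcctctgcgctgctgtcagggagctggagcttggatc
Itga1, chr13:115101965-115102214, minus strand: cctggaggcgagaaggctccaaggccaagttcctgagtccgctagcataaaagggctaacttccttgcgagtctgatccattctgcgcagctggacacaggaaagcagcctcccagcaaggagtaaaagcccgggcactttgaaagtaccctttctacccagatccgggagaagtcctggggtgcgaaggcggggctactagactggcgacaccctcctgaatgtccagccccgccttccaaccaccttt
Itga4, chr2:79255176-79255425, plus strand: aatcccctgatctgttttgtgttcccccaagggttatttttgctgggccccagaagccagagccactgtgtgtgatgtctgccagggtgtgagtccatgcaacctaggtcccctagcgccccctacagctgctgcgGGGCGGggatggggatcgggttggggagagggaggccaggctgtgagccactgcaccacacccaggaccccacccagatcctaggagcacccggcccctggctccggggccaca
The motifs were the GC box GGGCGG, the E-box CACCTG of the kind that SNAI and ZEB repressors bind, the TATA box TATAAA and the CArG box of serum response factor. None of them overlapped another in these windows. Itga11 held 1 CACCTG, on the minus strand, at positions -121 to -116 from the start, and 17.2% of all 32851 promoter windows of that length hold at least 1. Itga4 held 1 GGGCGG, on the plus strand, at positions -114 to -109, and 32.7% of all windows hold it. The Itga1 window held none of the motifs, and none of the 3 windows held a TATA box (12.4% of all windows) or a CArG box (1.47%). The 3 promoters thus had no motif of this search in common.

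RefSeq promoters were found for 31 of the 49 genes, in 35 windows, because some genes have several starts. GGGCGG lay in 12 of these 35 windows (34.3%) and CACCTG in 8 (22.9%), while TATAAA lay in 0. The median ratio of observed to expected CpG was 0.471 in the windows of the integrin and cadherin genes and 0.373 over all windows. It was 0.570 in the 13 windows of the 12 genes above the stricter limit and 0.259 in the 10 windows of the 10 genes between the limits. In the 12 windows of the 9 genes that did not pass the first limit on both arrays it was 0.471. A gene with several starts counts more than once in these medians. The ranges overlapped, from 0.310 to 0.906 in the first set, from 0 to 0.799 in the second and from 0.190 to 0.825 in the third.

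Genes of both families lie next to each other on the chromosomes. With no other protein-coding gene in between in RefSeq, 10 pairs of neighbours were found, among them Itga1 and Itga2 on chromosome 13, Itgam, Itgax and Itgad in a row on chromosome 7, Cdh8, Cdh11 and Cdh5 in a row and Cdh1 beside Cdh3 on chromosome 8, and Cdh6, Cdh9, Cdh10 and Cdh12 in a row on chromosome 15. Neighbours could differ, since Cdh11 passed both limits, while Cdh8 beside it passed neither.

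**Figure D1:**
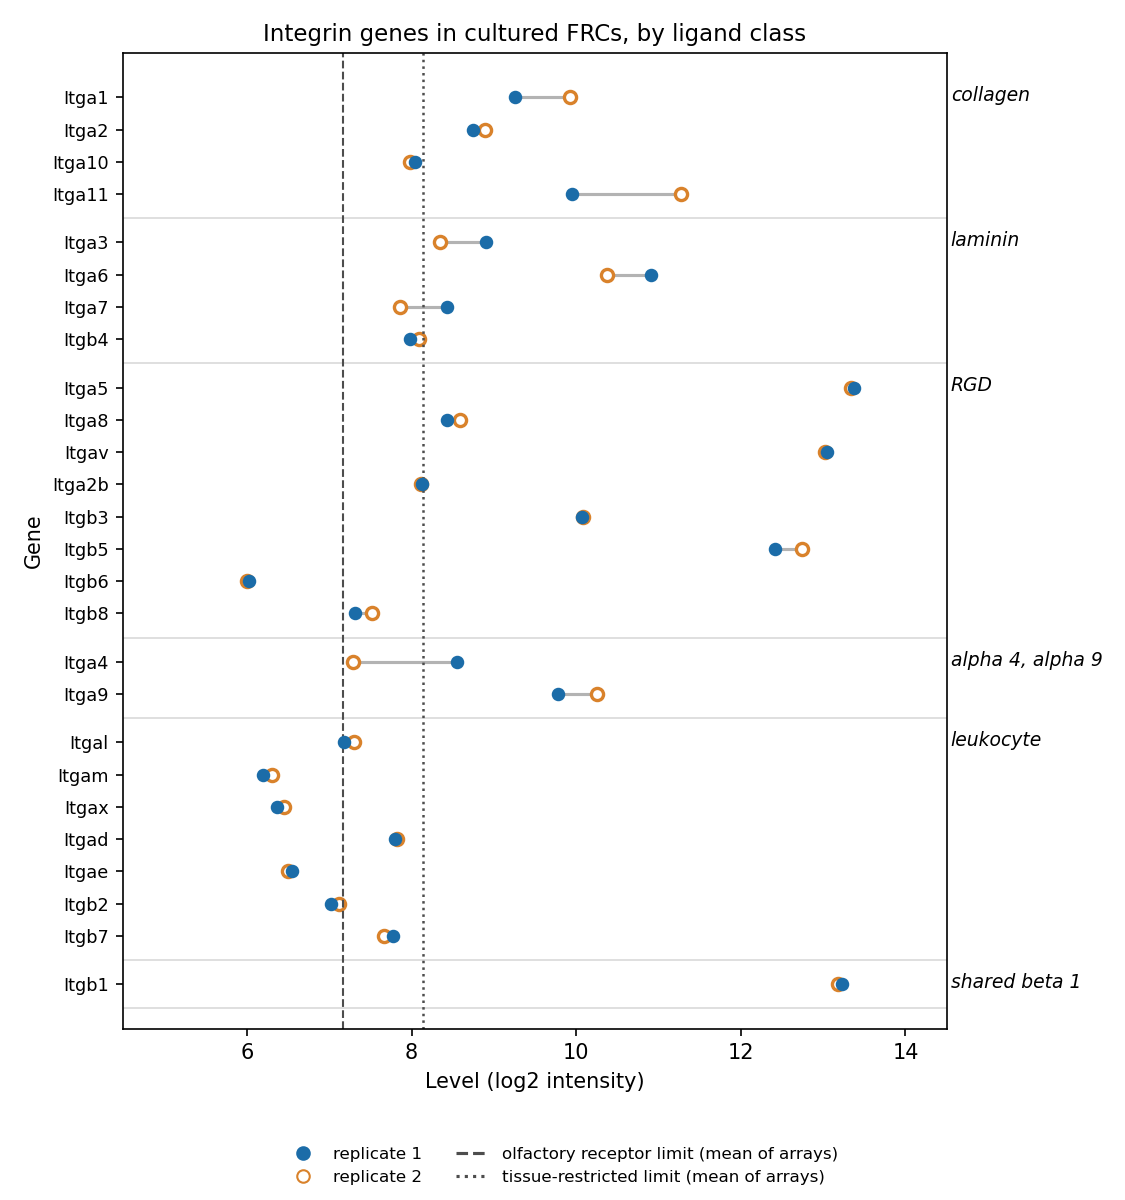
Levels of the 26 integrin genes by ligand class. The horizontal axis is log2 intensity, filled points are replicate 1, open points are replicate 2, and the vertical lines are the 2 background limits averaged over the arrays. Itgb1, Itga5, Itgav and Itgb5 lie above 12 on both arrays, all 7 leukocyte chains lie left of the dotted line, and the grey bars are longest for Itga11 and Itga4.

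The β1 chain, which pairs with most of the α chains below, gave a clear signal that hardly differed between the arrays. Itgb1 had levels of 13.22 and 13.18 on replicates 1 and 2 (13.20 ± 0.03).

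All 4 α chains of the collagen receptors, each of which pairs with β1, passed the first limit and 3 passed the stricter one. The shares of all named genes were 67.3% and 49.8%. Itga11, a receptor chain for fibrillar collagen that is known mainly from fibroblasts, had 9.95 on replicate 1 and 11.27 on replicate 2. Itga1, whose product prefers collagen IV, had 9.26 and 9.92. Itga2, known as the collagen receptor chain of platelets and epithelium, had 8.74 and 8.89. For these 3 genes replicate 1 was the lower array, and the replicates lay far apart for Itga11 and close for Itga2. Itga10, the collagen receptor chain known from cartilage, had 8.04 and 7.98, between the limits.

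The laminin receptors passed the first limit in 4 of 4 genes and the stricter one in 2 (50%), Itga3 and Itga6. The shares of all named genes were 67.3% and 49.8%, so the stricter count was close to the share of all genes. Itga6, which pairs with β1 or β4, had 10.91 on replicate 1 and 10.38 on replicate 2. Itga3 had 8.90 and 8.35. Itga7, known from muscle and mural cells, had 8.43 and 7.86 and passed the stricter limit on replicate 1. Each of these 3 α chains was higher on replicate 1, by 0.53 to 0.57 on the log2 scale. The β4 chain Itgb4, which anchors epithelium to its basement membrane, had 7.98 and 8.09, between the limits.

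The RGD receptors divided into genes with signal far above both limits and genes near background. Itga5, the α chain of the classical fibronectin receptor, had 13.38 and 13.33. Itgav, the shared α chain of the vitronectin receptors and of the integrins that activate latent TGF-β, had 13.04 and 13.02. Its partner Itgb5 had 12.41 and 12.74, and its partner Itgb3 had 10.07 and 10.09. These 4 genes thus passed both limits on both arrays, and of them Itgb5 differed most between the arrays (-0.33).

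Of the αv partners β6 and β8, which activate TGF-β in epithelium and in other cells, Itgb6 was below background and Itgb8 near it. Itgb6 had 6.03 and 6.00, below both limits, and Itgb8 had 7.31 and 7.52, above the first limit. Itga8, which binds nephronectin in mesenchyme, had 8.43 and 8.59 and passed both limits. The platelet chain Itga2b had 8.13 and 8.11 and passed the stricter limit on replicate 1. Of the 8 RGD receptor chains, 7 (87.5%) passed the first limit and 5 (62.5%) the stricter one, beside 67.3% and 49.8% of all named genes.

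The related chains α4 and α9, which bind VCAM-1 or tenascin-C and osteopontin, differed from each other in how their arrays lay. Itga9 had 9.78 on replicate 1 and 10.25 on replicate 2, above both limits. Itga4, best known from lymphocytes, had 8.55 on replicate 1, above the stricter limit, and 7.28 on replicate 2, just above the first.

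The leukocyte integrins were near background. Of 7 chains, 3 passed the first limit, which is 42.9% beside 44.1% of the tissue-restricted genes, and 0 passed the stricter one with probe sets averaged per gene, although 1 of the 2 Itgad probe sets passed it on both arrays. Itgb2, the β chain of the leukocyte-specific receptors, had 7.03 and 7.12, and Itgal, the α chain of LFA-1, had 7.18 and 7.31. Neither chain of LFA-1 thus reached the stricter limit. Itgam, the macrophage chain, had 6.20 and 6.30, and Itgax, known from dendritic cells, had 6.37 and 6.46. The E-cadherin receptor chain Itgae had 6.55 and 6.50. These 3 α chains were below the first limit on both arrays. Itgad had 7.80 and 7.83 as the mean of 2 probe sets on opposite sides of the first limit, at 8.58 and 8.68 for the first and 7.01 and 6.97 for the second. Itgb7, the partner of α4 and αE on gut-homing lymphocytes, had 7.78 and 7.66.

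The pan-leukocyte gene Ptprc, measured beside these chains, was below the first limit at 6.41 and 6.47. The leukocyte markers passed it in 5 of 11 cases, with a summed log2 level of 78.99 on replicate 1 and 78.36 on replicate 2. The stricter limit was passed by the tetraspanin Cd53, at 10.67 and 10.75, which does not match the other leukocyte markers. In bulk RNA, fewer cells of a type and less RNA per cell cannot be told apart.

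**Figure D2:**
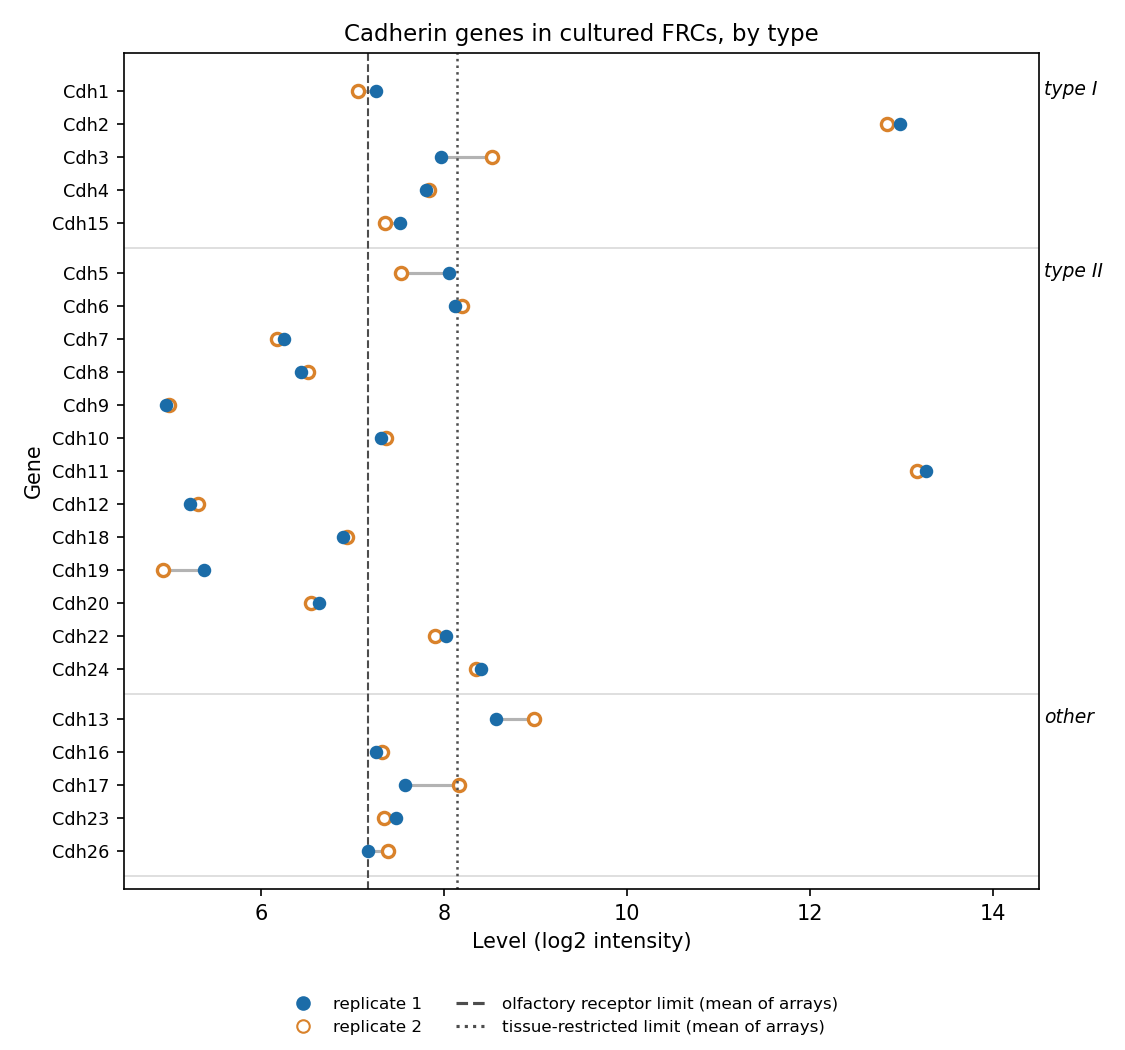
Levels of the 23 cadherin genes by type, drawn as for the integrins (log2 intensity, replicate 1 filled, replicate 2 open, limits as vertical lines). Cdh2 of type I and Cdh11 of type II lie above 12 on both arrays, and the other 21 genes lie below 9.

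Among the cadherins, Cdh2 and Cdh11 stood far above both limits and the remaining genes were near or below them. The neural and mesenchymal N-cadherin, Cdh2, had 12.98 on replicate 1 and 12.83 on replicate 2 (12.91 ± 0.10). The mesenchymal Cdh11, which holds fibroblast-like cells of the joint lining together, had 13.26 and 13.16 (13.21 ± 0.07). The arrays differed by 0.15 for Cdh2 and by 0.10 for Cdh11 on the log2 scale.

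The other type I cadherins passed the first limit in part and the stricter one on both arrays in no case. The epithelial E-cadherin, Cdh1, had 7.25 on replicate 1 and 7.06 on replicate 2, and passed the first limit on replicate 1 alone. P-cadherin, Cdh3, had 7.96 and 8.53, and passed the stricter limit on replicate 2. R-cadherin, Cdh4, had 7.80 and 7.83, and M-cadherin, Cdh15, known from muscle satellite cells, had 7.52 and 7.35. Of 8 epithelial markers 4 passed the first limit, with a summed log2 level of 61.5 on replicate 1 and 61.7 on replicate 2. The cytokeratin genes Krt19, at 10.84 and 10.82, and Krt8, at 8.445 and 8.504, passed the stricter limit on both arrays. Krt18 and Cldn4 lay between the limits, and Epcam, Esrp1, Cldn7 and Ovol1 were below the first, with Epcam at 6.65 and 6.64. The epithelial markers were thus divided, and the part of such cells in the cadherin levels was not tested.

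Type II cadherins passed the first limit in 6 of 13 genes, 46.2% against 67.3% of all named genes, and the stricter one in 3, Cdh11, Cdh24 and Cdh6. Cdh24 had 8.40 and 8.35, and Cdh6, known from kidney, had 8.11 and 8.19, only 0.02 and 0.01 above the stricter limit. VE-cadherin, Cdh5, the junction protein of endothelium, had 8.05 and 7.53, between the limits. Blood endothelial markers other than Cdh5 passed the first limit in 7 of 11 cases, with a summed log2 level of 81.3 on replicate 1 and 82.7 on replicate 2. Of them Egfl7 passed the stricter limit on both arrays, at 8.47 and 8.38, and Pecam1 was at 7.22 and 7.13. Emcn (7.64 and 8.40) and Tek (6.93 and 7.68) were 1.70-fold and 1.69-fold higher on replicate 2, while Cdh5 was higher on replicate 1, by 0.52. The lymphatic endothelial marker Flt4 had 8.41 and 7.79, and the other 4 measured markers of those cells were below both limits. The part of endothelial cells in the level of Cdh5 was not tested.

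The remaining type II genes are best known from the nervous system. Cdh22 had 8.02 and 7.90 and Cdh10 had 7.31 and 7.36, above the first limit. Below it were Cdh7, Cdh8, Cdh9, Cdh12, Cdh18, Cdh19 and Cdh20, at 4.93 to 6.94. Of these, Cdh19 of Schwann cell precursors had 5.38 and 4.93, and Cdh18 had 6.90 and 6.94 as the mean of 2 probe sets that differed (6.59 and 6.73, and 7.21 and 7.16). Cdh9 and Cdh12, from the row on chromosome 15, were at 4.96 and 5.0 and at 5.22 and 5.31.

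The 5 cadherins that are not classical all passed the first limit, and 1 of them, Cdh13, passed the stricter one. The shares of all named genes were 67.3% and 49.8%. Cdh13, the GPI-anchored T-cadherin that binds adiponectin, had 8.56 on replicate 1 and 8.98 on replicate 2. Cdh17, known from liver and intestine, had 7.57 and 8.17. The kidney gene Cdh16 had 7.25 and 7.32, the hair cell tip-link gene Cdh23 had 7.47 and 7.34, and the epithelial Cdh26 had 7.17 and 7.38. All but Cdh13 therefore lay where a large share of the tissue-restricted genes lay too.

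The inner partners of both receptor families were above background almost throughout. Of 33 measured cytoplasmic partners of integrins, 32 (97.0%) passed the first limit and 29 (87.9%) the stricter one. Of all named genes, 67.3% passed the first limit and 49.8% the stricter one. Talin-1 (Tln1), which activates integrins by binding the β tail, had 12.28 and 12.16, and kindlin-2 (Fermt2), its co-activator, had 12.90 and 12.82. Ilk had 12.80 and 12.69, vinculin (Vcl) 12.81 and 12.82, and paxillin (Pxn) 11.12 and 11.05. The genes that missed the stricter limit were the epithelial kindlin Fermt1 (5.92 and 6.02, below both limits), the blood cell kindlin Fermt3 (7.40 and 7.61), Parvg (7.40 and 7.25) and Tns4 (7.30 and 7.43). Ptk2, which encodes focal adhesion kinase, had no probe set of its own.

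Of 10 catenins and their partners, 8 (80%) passed both limits, beside 67.3% of all named genes for the first limit and 49.8% for the stricter one. β-catenin (Ctnnb1) had 12.70 on both arrays, αE-catenin (Ctnna1) 11.94 and 11.88, p120-catenin (Ctnnd1) 12.61 and 12.54, and plakoglobin (Jup) 11.20 and 11.25. The neural Ctnna2 had 6.93 and 7.24 and passed the first limit on replicate 2, and Ctnna3 had 6.52 and 6.66, below it. All 11 membrane partners of integrins passed both limits, including Cd151, the tetraspanin that binds the laminin receptors, at 12.51 and 12.66, and Cd47, the partner of αvβ3, at 11.08 and 11.43.

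Each class had ligand genes above the stricter limit in the same RNA. Over all named genes 67.3% passed the first limit and 49.8% the stricter one. Of the collagen ligand genes 10 of 10 passed both limits, and of the laminin chains 10 of 10 measured passed the first and 7 the stricter one, with Lamb1 at 12.43 and 12.00, Lamc1 at 11.43 and 11.64, and Lama4 at 9.58 and 10.45. Of the RGD ligands 8 of 12 (66.7%) passed the first limit, close to the share of all named genes, and 7 (58.3%) the stricter one. Fn1 had 13.79 and 13.86. The 4 that did not pass the first limit were Vtn, Ibsp, Fgg and Egfl6. All 9 ligand genes of the leukocyte integrins passed the first limit and 5 (55.6%) the stricter one. Vcam1, the ligand of α4β1, had 11.73 and 11.86, and Icam1, the ligand of LFA-1, had 8.56 and 8.69. The other 3 that passed the stricter limit were F11r, Jam2 and Jam3.

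**Figure D3:**
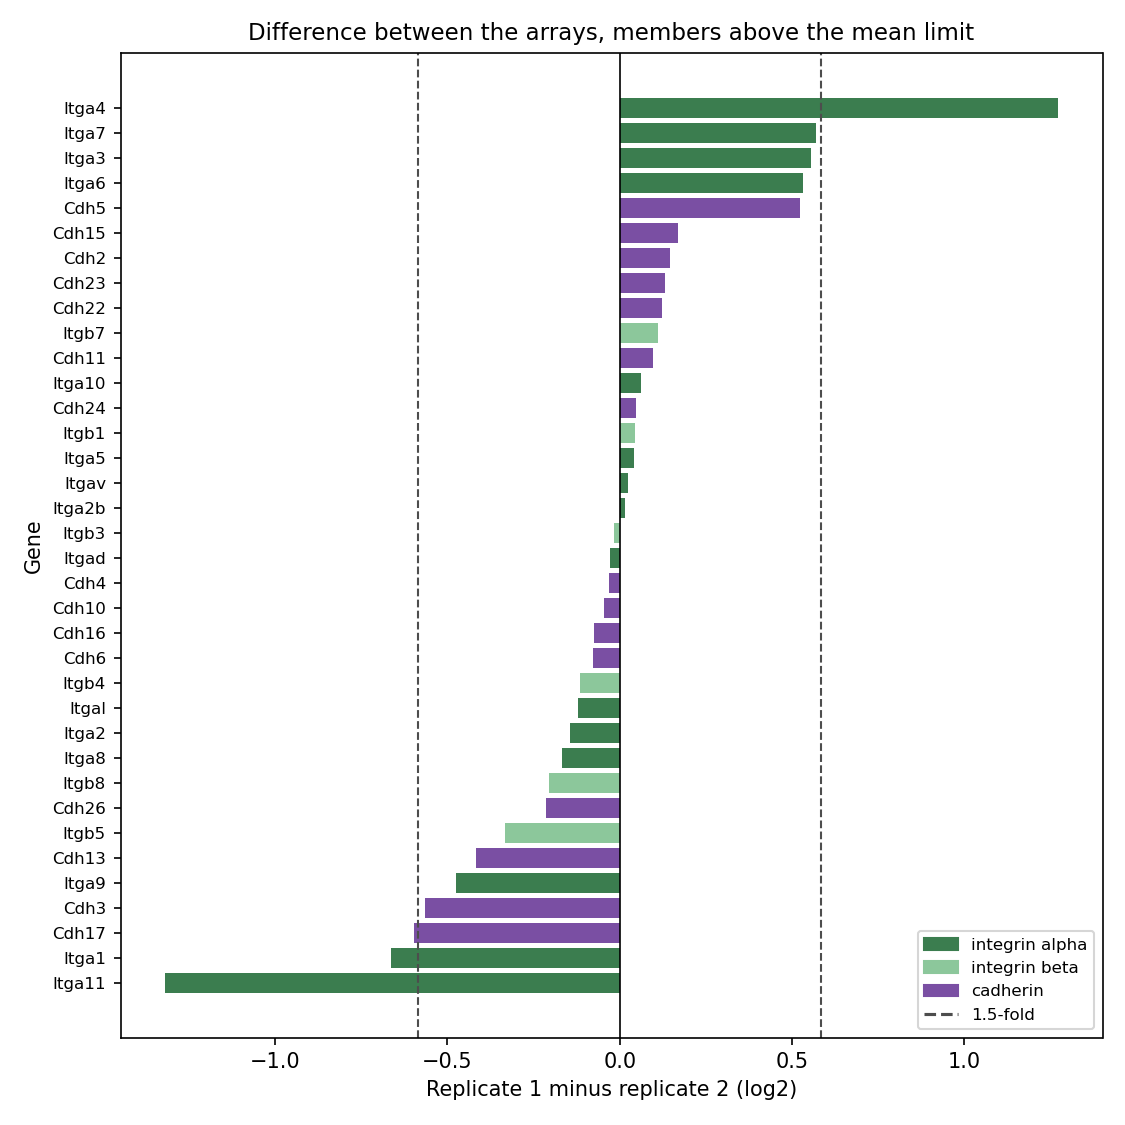
Difference between the arrays, replicate 1 minus replicate 2 on the log2 scale, for the 36 integrin and cadherin genes with a mean level over the mean first limit, 7.16. Bars right of 0 are higher on replicate 1, and the dashed lines mark 1.5-fold. Itga4 is past the line on the right, Itga11, Itga1 and Cdh17 are past it on the left, and Itga7, Itga3 and Itga6 end just short of it.

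The arrays were then compared gene by gene, as replicate 1 minus replicate 2, over the 36 integrin and cadherin genes with a mean level over the mean first limit, 7.16. At least 1.5-fold apart were 4 of them (11.1%), 1 higher on replicate 1 and 3 higher on replicate 2. Among all 13577 genes above the mean limit 4.77% were that far apart, 1.91% higher on replicate 1 and 2.87% higher on replicate 2. At least 2-fold apart were 2 of the 36, Itga4 and Itga11, beside 1.41% of all genes above the mean limit. With so few genes the share is a description, and each difference rests on 1 array per side.

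Itga4 was 2.41-fold higher on replicate 1, a difference of 1.27. With replicate 2 set to the stricter limit, which it did not reach, Itga4 was at least 1.29-fold higher on replicate 1. Itga11 was 2.49-fold higher on replicate 2 (-1.32) and Itga1 1.59-fold (-0.66), with both arrays above the stricter limit. Cdh17 was 1.51-fold higher on replicate 2 (-0.60), with neither array above the stricter limit. The largest of these differences were thus in integrin α chains, 3 of the 15 above the mean limit, beside 0 of 6 β chains. Over all genes above the mean limit the share was 4.77%. With 6 β chains, a count of 0 lies close to that share.

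The β chains and the genes furthest above the limits were less than 1.5-fold apart. Over the 6 β chains above the mean limit the differences ran from -0.33 for Itgb5 to 0.11 for Itgb7. Their median absolute difference was 0.11, the same as over all genes above the mean limit. Itga5, Itgav and Itgb1 differed by 0.04, 0.02 and 0.04, Cdh2 by 0.15 and Cdh11 by 0.10. The median absolute difference over the 36 genes was 0.14, against 0.11 over all genes above the mean limit.

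**Figure D4:**
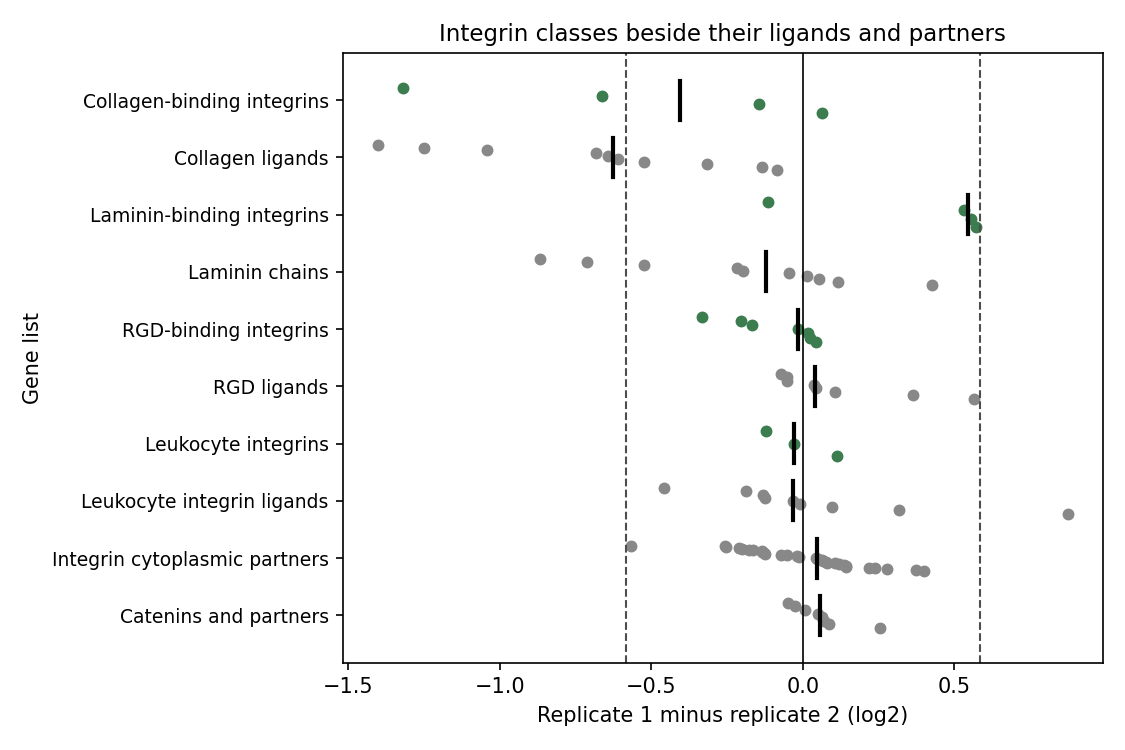
Replicate 1 minus replicate 2 (log2) for genes above the mean limit. Green points are the collagen, laminin, RGD and leukocyte integrin classes, and grey points are their ligands, the cytoplasmic partners and the catenins. The α4 and α9 chains and Itgb1 are not drawn. Each point is a gene, black bars are medians and dashed lines mark 1.5-fold. Collagen-binding integrins and collagen ligands both lie mostly left of 0, whereas the 3 laminin-binding α chains lie right of 0 and the laminin chains on both sides.

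Set beside their ligands, the classes differed in direction. The 4 collagen-binding α chains had a median difference of -0.40, and 3 of them were higher on replicate 2. Itga11 (-1.32) and Itga1 (-0.66) differed most, while Itga2 differed by -0.15 and Itga10 by 0.06. All 10 collagen ligand genes were higher on replicate 2, with a median of -0.63, and 6 were at least 1.5-fold apart. Among all genes above the mean limit 4.77% were that far apart, with 2.87% higher on replicate 2. Among the 6 were Col6a1 (-1.40), Col3a1 (-1.25), Col6a2 (-1.04), Col1a2 (-0.68) and Col5a1 (-0.64). Col1a1 differed by -0.52. The collagen IV genes Col4a1 and Col4a2 differed by only -0.08 and -0.13, although the product of Itga1 prefers collagen IV. Over all 13577 genes the median was -0.0046.

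For laminin the receptors and the ligands did not run together. Itga7, Itga3 and Itga6 were higher on replicate 1, by 0.57, 0.55 and 0.53, each just under 1.5-fold, while Itgb4 differed by -0.11. The 10 laminin chains had a median of -0.12, and the mesenchymal Lama4 (-0.87) and Lama2 (-0.71) were higher on replicate 2, whereas Lamb1 was higher on replicate 1 (0.43). RGD receptors (median -0.02) and RGD ligands (0.04) had 0 genes 1.5-fold apart. With 7 and 8 genes above the mean limit, counts of 0 lie close to the 4.77% share of all such genes.

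Cytoplasmic partners of the integrins had a median of 0.05 and catenins 0.06, with 0 of 32 and 0 of 8 genes 1.5-fold apart. Among all genes above the mean limit 4.77% were that far apart. Of the membrane partners, the tetraspanin Cd9 was 1.61-fold higher on replicate 2 (-0.68). Of the leukocyte integrin ligands, F11r, a tight junction protein that LFA-1 binds in human, was 1.83-fold higher on replicate 1 (0.87).

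Pericytes and mural cells are known to express Itga1 and Itga7, and their markers also differed between the arrays. Of 7 such markers 5 passed the first limit, their summed log2 level was 58.4 on replicate 1 and 62.1 on replicate 2, and Abcc9 and Higd1b were below the limit. Of the 5 that passed, 4 were higher on replicate 2, Rgs5 (7.37 and 9.91, a difference of -2.54), Cspg4 (9.28 and 9.99), Notch3 (8.70 and 9.02) and Kcnj8 (7.28 and 7.38). Mcam, the marker furthest above the limit, had 12.84 and 12.72 and was higher on replicate 1, by 0.12. Kcnj8 differed by -0.11, beside a median absolute difference of 0.11 over all genes above the mean limit. The FRC markers were higher on replicate 2 too, in 7 of 8 cases. Itga1 was higher on replicate 2 and Itga7 on replicate 1. The part of pericytes and mural cells in the differences was not tested.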

How the data were processed

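The intensities that the authors deposited are linear values per probe set, which RMA produced per the submitters' processing notes. The version, and which arrays were normalised together, are not given in the sources used here. RMA equalises the intensity distributions of arrays and compresses differences at low signal. Deposited intensities were converted here to log2 values, with no pseudocount. The platform annotation named 1 gene for 21354 of 24679 probe sets, and the other 3325 were not used. Probe sets of a gene were averaged, which gave 19751 genes, and 3 of the 49 integrin and cadherin genes had more than 1 probe set. Precision is limited by having 2 arrays.

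The ligand classes, partner and marker lists were fixed by hand from known biology, with earlier results of these data known. The naming rule took every integrin and cadherin gene, fixed core partners, list genes at least 1.5-fold apart (5 per list) and small minorities at a limit. Fermt3, Parvg, Tns4, Jam2, Jam3 and the cell type markers were named after their values were seen. With 1 group no test across genes was made. The counting was run on simulated data with planted differences beyond 1.5-fold and noise taken from the olfactory receptor probe sets. That run checks the counting code and not the replicate spread of expressed genes. Alternatives were other percentiles and gene sets for the limit, other probe set choices, 1 array alone, no filter or a stricter filter, 2-fold, quantile normalisation, loess with span 0.3 and values set to the limit. Python 3.11.15, pandas 2.3.3 and statsmodels 0.14.6 were used.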

Additional observations from a re-analysis of the deposited data

Results flagged for a closer look

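A further 5 probe sets name an integrin or cadherin together with other genes and were not used above. All 5 lay above the first background limit on both arrays. The 3 that name Cdh11 with a pair of other genes had mean log2 levels of 12.48, 9.39 and 12.20. The 2 that name Itgam with the ribosomal protein gene Rpl35 had mean log2 levels of 12.16 and 13.00, whereas the probe set of Itgam alone had 6.25. Which gene gave the signal of a shared probe set was not tested.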

How the results depend on the processing

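The counts above the limit depended on which limit was used. With the 99th percentile of the olfactory receptor probe sets 19 genes passed in place of 36, and with the tissue-restricted limit 17. The cadherins numbered 5 under both limits, and the integrins 12 under the tissue-restricted limit. Under both limits the counts were 2 for laminin receptors, 1 for the α4 and α9 chains, 0 for leukocyte chains, 1 for type I, 3 for type II and 1 for the other cadherins, and 5 for leukocyte integrin ligands. With either replicate left out, 36 to 37 of the 49 genes passed. The other 107 of 126 such counts stayed within 1.5 times of the reported one. For genes between the limits, signal over background was too small to call a transcript present or absent.

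Of the 4 genes 1.5-fold apart, Itga4 was lost where the mean level had to exceed the tissue-restricted limit (0 genes higher on replicate 1), and Cdh17 too (0 cadherins higher on replicate 2). Quantile normalisation gave 2 integrins, and 2 of all 49 genes, higher on replicate 1, the second being Itga7. At 2-fold 1 integrin, and 1 of all 49 genes, was higher on replicate 2 (Itga11), with 0 cadherins, 0 membrane partners, 3 collagen ligands and 0 laminin chains, and 0 leukocyte integrin ligands were higher on replicate 1. The median difference of the leukocyte integrin ligands was -0.13 with the stricter filter. The other 69 of 70 medians moved by less than the spread between replicates. That spread is the median SD of the same genes, so the check is loose where the arrays lie far apart. For the collagen ligands it was 0.44 beside a median of -0.63, which was -0.61 with quantile normalisation. No difference of a gene 1.5-fold apart changed sign. A difference needs both arrays, so none could be given without replicate 1 or 2. No paired analysis was possible because there is 1 group.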
